A study of Mus musculus with 6 samples.

Results

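The immunoglobulin genes were examined in RNA-Seq data from distal colon of 3 Gm31629-/- mice and 3 WT littermates. All 6 mice were 8 weeks old and of the C57BL/6 strain by the labels, given as C57BL/6J in the methods, drank 3% DSS (dextran sulfate sodium, which damages the lining of the colon) for 7 days, and were killed on day 8, so both groups were compared under injury and without untreated mice. The Gm31629-/- mice carried a germline deletion in the long noncoding RNA gene Gm31629 on chromosome 1, not limited to a cell type, and the comparison asked how the colon of these mice differed from that of WT mice during colitis. Members were chosen by symbol, as every listed gene for an immunoglobulin heavy, kappa, or lambda variable, diversity, joining, or constant segment. The rule found 234 of 27546 listed genes, of which 105 were heavy chain variable segments (Ighv), 99 kappa variable segments (Igkv), and 3 lambda variable segments (Iglv). The other members were 8 heavy chain constant genes, Igkc, 4 lambda constant genes (Iglc), 4 Ighj, 5 Igkj, and 3 Iglj joining segments, and 2 Ighd diversity segments.

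An antibody gene is assembled in a developing B cell, which joins 1 variable segment to a joining segment (with a diversity segment between them in the heavy chain) and so marks all of its descendants with the same choice. The heavy chain first uses the constant genes Ighm and Ighd, and an activated B cell can switch to Ighg, Ighe, or Igha while it keeps its variable segment. Plasma cells are the end stage of this lineage, secrete antibody, and carry very large amounts of immunoglobulin mRNA. In the intestinal lamina propria most of them make IgA, which is joined into dimers by the J chain and carried across the epithelium.

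The segments that led the results are shown here by their germline sequence, since reads are assigned to a segment by these bases. All sequences were read 5′ to 3′ from the GENCODE M21 transcripts of GRCm38, and the coordinates of variable segments give the whole gene. For the 4 segments whose levels rose most or that led the kappa locus, the last 300 bases of the spliced transcript are given, and the capitals mark the codon of the conserved cysteine that ends the germline framework before the junction. The shortest annotated transcript of each segment was used. For Ighv8-12 it holds 315 bases, against 358 exon bases in the gene, and it ends before this codon and has no capitals.
Ighv1-81 (chr12:115920279-115920712, minus strand): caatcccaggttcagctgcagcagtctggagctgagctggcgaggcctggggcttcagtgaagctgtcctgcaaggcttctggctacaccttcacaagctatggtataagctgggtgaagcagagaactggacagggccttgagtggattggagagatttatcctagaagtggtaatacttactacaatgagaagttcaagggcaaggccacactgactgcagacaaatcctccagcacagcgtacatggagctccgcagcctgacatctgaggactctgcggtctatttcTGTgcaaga
Ighv8-12 (chr12:115647945-115648387, minus strand): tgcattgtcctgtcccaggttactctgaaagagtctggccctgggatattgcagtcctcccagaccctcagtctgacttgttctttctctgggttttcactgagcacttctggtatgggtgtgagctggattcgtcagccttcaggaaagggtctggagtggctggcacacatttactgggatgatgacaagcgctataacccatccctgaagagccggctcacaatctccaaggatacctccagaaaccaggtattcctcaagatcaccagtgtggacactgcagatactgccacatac
Igkv1-117 (chr6:68121046-68121827, plus strand): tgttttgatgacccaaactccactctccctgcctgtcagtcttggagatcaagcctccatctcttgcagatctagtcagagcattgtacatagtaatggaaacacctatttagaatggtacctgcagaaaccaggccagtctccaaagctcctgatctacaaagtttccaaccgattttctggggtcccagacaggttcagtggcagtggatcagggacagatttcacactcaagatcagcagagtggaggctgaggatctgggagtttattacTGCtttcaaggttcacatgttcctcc
Igkv8-30 (chr6:70117061-70117620, minus strand): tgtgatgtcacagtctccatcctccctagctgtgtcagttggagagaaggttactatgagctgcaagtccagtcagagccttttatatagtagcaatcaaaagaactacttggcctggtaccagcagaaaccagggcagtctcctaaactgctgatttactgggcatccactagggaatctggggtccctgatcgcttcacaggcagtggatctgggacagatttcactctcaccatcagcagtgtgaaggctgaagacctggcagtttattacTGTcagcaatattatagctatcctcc
For the other segments that led a library, the last 60 bases are given, with the same codon in capitals.
Ighv1-75 (chr12:115833950-115834418, minus strand): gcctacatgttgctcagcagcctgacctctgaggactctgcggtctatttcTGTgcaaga
Ighv3-6 (chr12:114288152-114288582, minus strand): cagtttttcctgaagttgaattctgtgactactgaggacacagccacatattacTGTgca
Ighv2-2 (chr12:113588267-113588702, minus strand): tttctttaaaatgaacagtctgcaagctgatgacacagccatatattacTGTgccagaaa
Ighv1-64 (chr12:115507545-115508031, minus strand): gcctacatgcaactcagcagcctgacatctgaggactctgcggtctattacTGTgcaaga
Igkv10-96 (chr6:68631963-68632442, minus strand): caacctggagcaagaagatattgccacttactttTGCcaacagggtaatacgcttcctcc
Igkv4-59 (chr6:69438218-69438757, minus strand): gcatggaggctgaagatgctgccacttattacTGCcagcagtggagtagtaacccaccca
Igkv6-32 (chr6:70074024-70074603, minus strand): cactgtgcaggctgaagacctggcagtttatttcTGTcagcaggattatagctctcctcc
Joining segments are shorter, and 5 of them are given by their shortest annotated transcript, with its own coordinates. The annotated gene is longer than this transcript for Ighj2 (48 of 100 bases) and Igkj5 (38 of 42 bases). The capitals mark the J motif, searched on the transcript strand as TGGGGNNNNGG in Ighj and TTNGGNNNNGG in Igkj, in which N is any base. The motif was found in each of these segments except Igkj3.
Ighj2 (chr12:113429468-113429515, minus strand): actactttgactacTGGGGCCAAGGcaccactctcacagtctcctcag
Ighj4 (chr12:113428514-113428567, minus strand): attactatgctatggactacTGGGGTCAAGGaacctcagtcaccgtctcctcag
Igkj1 (chr6:70722562-70722599, plus strand): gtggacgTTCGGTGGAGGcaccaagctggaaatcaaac
Igkj5 (chr6:70723886-70723923, plus strand): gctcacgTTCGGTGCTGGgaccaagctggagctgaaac
Igkj3 (chr6:70723223-70723260, plus strand): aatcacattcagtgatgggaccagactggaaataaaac

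Variable segments belong to families of similar copies. Over the last 250 bases, the closest other listed Ighv segment had a median identity of 94.0%, and 2 of 105 Ighv segments (Ighv1-62-2 and Ighv1-71) were identical to each other. Among the segments shown above, the closest relative of Ighv1-81 was Ighv1-85 with 92.8% identity, that of Ighv8-12 was Ighv8-6 with 82.0%, that of Igkv1-117 was Igkv1-110 with 96.4%, and that of Igkv8-30 was Igkv8-19 with 93.6%. The Ighv8-12 value can be too low, since its transcript ends early and the bases compared can be offset from those of other copies. Fragments could be split between such copies, and somatic mutation of the expressed genes can move reads away from the germline sequence, so the level of any single segment is uncertain to that extent.

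Levels were given as FPKM (fragments per kilobase of exon scaled to the mapped fragments of the library). The libraries held between 18006000 and 18795100 mapped fragments as recovered from these values, and the members' 570 values of up to 20 fragments were all within 0.1 of a whole number of fragments. A value of 0 allows up to 3 fragments in a library, and this limit and the intervals below cover counting error only. Gm31629 itself was not among the listed genes, so the genotype labels could not be checked by its level. The library of Gm31629-/- mouse 1 stood apart from the other 5, with 9.27 FPKM of the Y-linked gene Ddx3y and 0.00606 FPKM of Xist, whereas the others had 0 FPKM of Ddx3y and 8.35 to 13.8 FPKM of Xist. The study's methods describe male mice, which the Ddx3y and Xist levels of mouse 1 match and those of the other 5 libraries do not. These 5 were Gm31629-/- mice 2 and 3 and all WT mice. Results that rest on Gm31629-/- mouse 1 are therefore given with and without it. The part of sex in the results was not tested.

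Immunoglobulin transcripts were far more abundant in Gm31629-/- colon. Summed over all members, the level was 5478, 5466, and 11112 FPKM in Gm31629-/- mice 1 to 3 and 576, 649, and 370.0 FPKM in WT mice 1 to 3. The lowest Gm31629-/- mouse thus lay above the highest WT mouse, and the group means stood at 7352 ± 3256 and 532 ± 145 FPKM (SD, n = 3 each), a ratio of 13.8. Members took 0.477% to 0.936% of the fragments in Gm31629-/- libraries and 0.0334% to 0.0534% in WT libraries. The exact two-sided permutation p was 0.1, which is the smallest that 3 mice against 3 can give. Fewer cells of a type and less RNA per cell cannot be told apart in bulk tissue.

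Members of most kinds were higher in Gm31629-/- mice. With limma on log2(FPKM + 1), 76 of the 234 members were called higher in Gm31629-/- mice (Benjamini-Hochberg adjusted p under 0.05 and log2 fold change above 1) and 0 were called lower when no filter was applied, against 9.21% of all 27546 listed genes called higher. With genes of a mean of at least 0.5 FPKM, 178 members were tested and 56 were not, 101 were called higher, and 0 were called lower, against 18.4% of 14657 tested genes called higher and 4.64% called lower. Called members were 37 of 76 tested Ighv, 46 of 75 tested Igkv, all 3 Iglv, 5 of 7 tested heavy constant genes, Igkc, 3 of 3 tested Iglc, 2 of 4 Ighj, and 4 of 5 Igkj segments, and 0 of 2 tested Iglj and 0 of 2 Ighd segments. No member was lower at an unadjusted p under 0.05, by limma with or without the filter or by voom on recovered fragments (0 of 178, 0 of 234, and 0 of 178). The share of all genes lower at this p was not computed, and members at 0 FPKM in all WT mice could not be lower. The log2 fold change was above 0 for 228 of all 234 members, with a median of 1.62, whereas the median over all listed genes was 0.06. The FPKM of all 3 Gm31629-/- mice lay above those of all 3 WT mice for 119 of 234 members and below for 0, against 31.0% of all listed genes that lay above. The share of all listed genes that lay below was not computed. Among members that passed the filter, 117 were called without Gm31629-/- mouse 1 and 62 without WT mouse 3. These fits tested 14361 and 14842 genes, and their shares of all genes called were not computed.

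Constant genes gave the antibody classes. Igha (ENSMUSG00000095079, chr12:113254830-113260236), the heavy chain of IgA, was the most abundant heavy chain gene in each library. Its level was 835, 1024, and 1947 FPKM in Gm31629-/- mice and 103, 105, and 71.6 FPKM in WT mice, so that it rose by 3.68 ± 0.33 on the log2 scale (standard error, limma adjusted p = 0.000443). The groups did not overlap, and the highest level was in Gm31629-/- mouse 3. Igkc (ENSMUSG00000076609, chr6:70726435-70726966), the only kappa constant gene, was at 2581, 1856, and 3594 FPKM against 207, 234, and 153 FPKM, and rose by 3.72 ± 0.29 on the log2 scale (standard error, limma adjusted p = 0.000282).

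Genes of unswitched B cells also rose. Ighm (ENSMUSG00000076617, chr12:113418558-113422730), the heavy chain of IgM, was at 40.2, 16.2, and 38.0 FPKM in Gm31629-/- mice and at 3.84, 3.00, and 4.26 FPKM in WT mice. Ighd (ENSMUSG00000104213), which is spliced from the same transcript as Ighm in mature naive B cells, was at 10.4, 3.56, and 13.8 FPKM against 0.455, 0.614, and 1.54 FPKM. The groups did not overlap for either gene, and mouse 2 was the lowest of the Gm31629-/- mice. The log2 fold changes were 2.69 (limma adjusted p = 0.00132) for Ighm and 2.34 (limma adjusted p = 0.00624) for Ighd. Adding 1 to FPKM understates the change more for Ighd, which was lower in WT mice, so these values do not rank the genes. Whether the log2 fold changes of Ighm and Ighd differed from that of Igha was not tested.

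The IgG2 genes were low in WT colon and higher in each Gm31629-/- mouse. Ighg2c (ENSMUSG00000076612, chr12:113285325-113288932) encodes the IgG2c heavy chain, which C57BL/6 mice carry in place of IgG2a and which is known as a class favored by interferon gamma. It was at 152, 15.8, and 22.5 FPKM in Gm31629-/- mice and at 0.0815, 0.0419, and 0.120 FPKM in WT mice, and these WT values stand for 2, 1, and 3 fragments. Mouse 1 was far above the other 2 Gm31629-/- mice, and each of the 3 was far above WT. Pooled over the mice of a group, 4643 fragments were counted against 6, a ratio of 775 at equal depth (95% exact interval 356 to 2113). Mouse 1 gave 3707 of the 4643, and without it the ratio was 234 (interval 107 to 640.0). On the log2(FPKM + 1) scale, which understates the change of a gene so low in WT, the fold change was 5.18 (limma adjusted p = 0.00218) and was 4.202 without Gm31629-/- mouse 1 (limma adjusted p = 0.000178). With all mice it was the largest log2 fold change of the constant genes on this scale, whereas without this mouse that of Iglc1 was larger, at 5.69. This order does not rank the ratios of these genes, since the scale understates Ighg2c more than Iglc1, which was higher in WT mice.

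Ighg2b (ENSMUSG00000076613, chr12:113302965-113307933), the IgG2b heavy chain gene, followed Ighg2c, with 105, 18.9, and 32.1 FPKM in Gm31629-/- mice and 0.484, 0.228, and 0.377 FPKM in WT mice. Its log2 fold change was 4.92 (limma adjusted p = 0.00086), and 4.24 without Gm31629-/- mouse 1 (limma adjusted p = 0.000226). Ighg1, the IgG1 heavy chain gene, did not pass the test. It was at 9.69, 2.49, and 24.4 FPKM in Gm31629-/- mice and at 0.459, 4.18, and 0.431 FPKM in WT mice, and WT mouse 2 overlapped the Gm31629-/- group (log2 fold change 2.15, limma adjusted p = 0.0599). It passed without Gm31629-/- mouse 2 (limma adjusted p = 0.0167) or without WT mouse 2 (limma adjusted p = 0.0387). Ighg3 was at 2.96, 0.302, and 1.08 FPKM against 0.0424 to 0.0884 FPKM (limma adjusted p = 0.0567, and 0.0106 without Gm31629-/- mouse 2). Ighe, the IgE heavy chain gene, did not pass the filter, with 12, 25, and 17 fragments in Gm31629-/- mice and 1, 6, and 0 in WT mice.

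**Figure D1:**
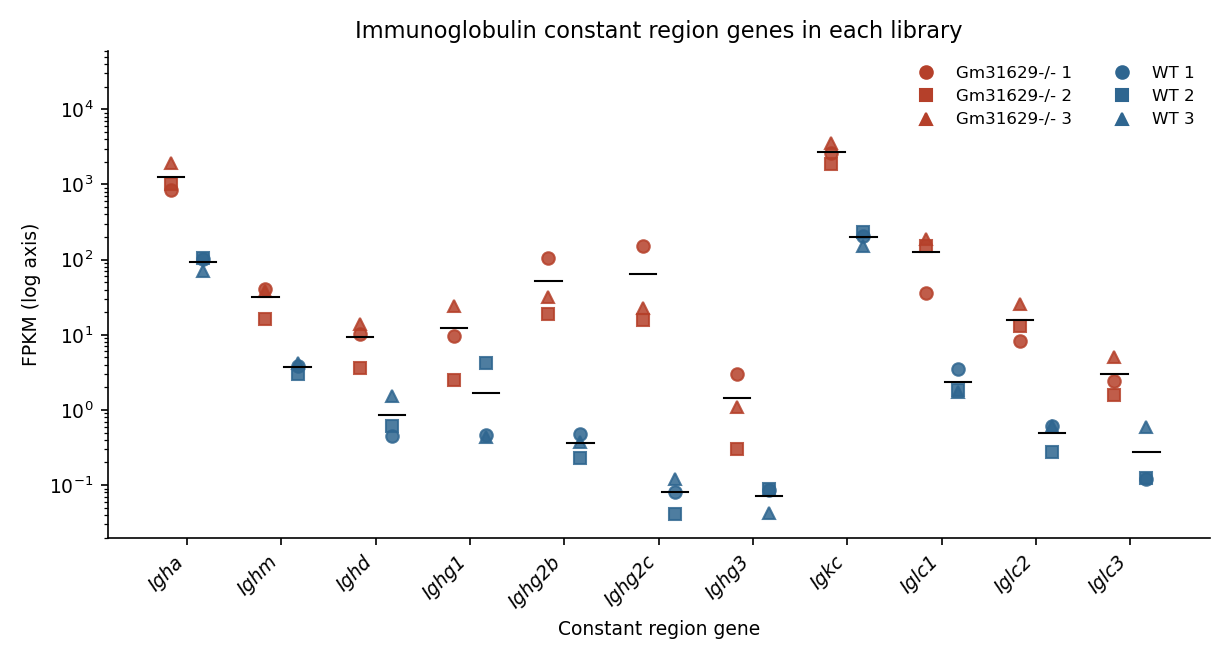
FPKM of 11 constant region genes on a log axis, with 1 point per library (red Gm31629-/-, blue WT, shapes for mice 1 to 3) and a black line at each group mean. All red points lie above all blue points except for Ighg1, and the gap is widest for Ighg2c. Ighe and Iglc4 are left out because libraries were at 0 FPKM.

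Relative to the other classes, IgA kept most of the heavy chain signal in both groups. Igha held 72.3%, 94.6%, and 93.6% of heavy constant FPKM in Gm31629-/- mice 1 to 3 and 94.97%, 92.6%, and 91.4% in WT mice 1 to 3. The low value came from mouse 1 alone, and the difference of the means was -6.14 percentage points (exact two-sided permutation p = 0.8) with this mouse and 1.15 without it. Ighm held 1.497% to 3.48% in Gm31629-/- mice and 2.65% to 5.44% in WT mice, so that the groups overlapped. The 4 IgG genes together held 23.3%, 3.46%, and 3.85% in Gm31629-/- mice and 1.03%, 3.998%, and 1.24% in WT mice, which also overlapped (exact two-sided permutation p = 0.3).

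The make-up of the IgG signal, in contrast, separated the groups. Ighg2c held 56.4%, 42.2%, and 28.1% of IgG FPKM in Gm31629-/- mice and 7.34%, 0.923%, and 12.4% in WT mice. Ighg1 held 3.60%, 6.63%, and 30.4% against 41.3%, 92.1%, and 44.4%. Neither share overlapped between the groups, with or without mouse 1, and each had the exact two-sided permutation p of 0.1 that is the smallest possible. Over the 109 measures of level, share, and spread compared between the groups in this way, 27 reached this p, and the Benjamini-Hochberg adjusted p was 0.404 or higher for each. The WT shares rest on few fragments, since Ighg2c had at most 3 per WT library and Ighg1 had 22, 195, and 21. Of all heavy constant FPKM, Ighg2c took 13.1%, 1.46%, and 1.08% in Gm31629-/- mice against 0.0369% to 0.154% in WT mice. The difference of the means was 5.14 percentage points, and 1.18 without Gm31629-/- mouse 1. These shares depend on the annotated exon length, which was 1326 bases for Ighg2c and 2678 bases for Ighg2b. As shares of fragments, Ighg2c took 7.09%, 0.736%, and 0.546% of the heavy constant total in Gm31629-/- mice and 0.0186% to 0.0781% in WT mice.

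**Figure D2:**
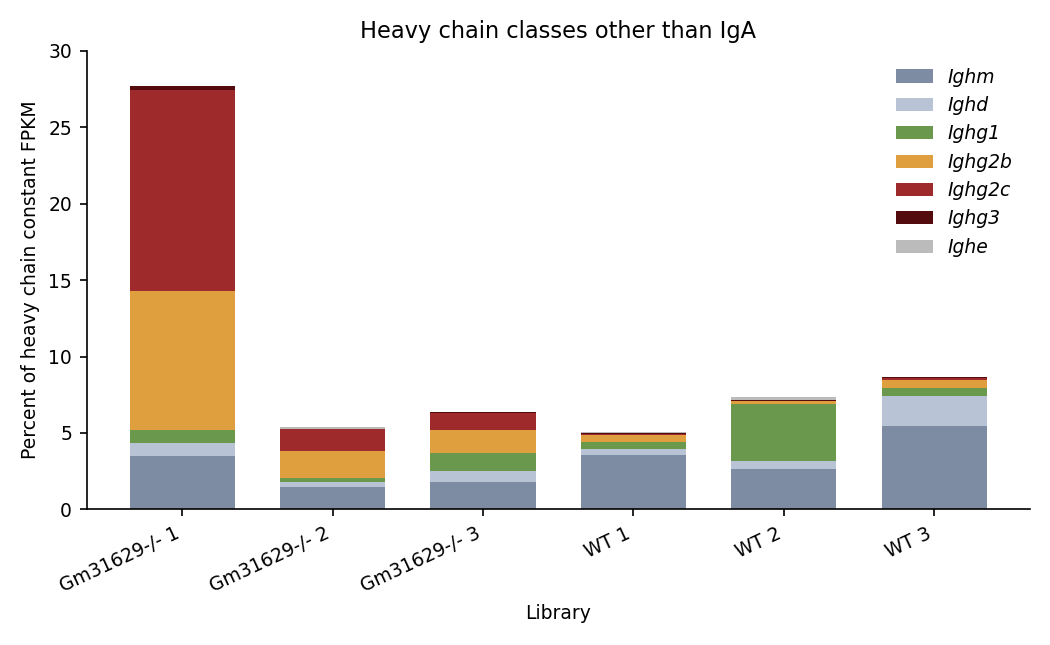
Stacked bars of the heavy chain classes other than IgA, in percent of heavy chain constant FPKM per library. Gm31629-/- mouse 1 stands apart, with 9.07% Ighg2b and 13.1% Ighg2c. In WT mouse 2 the largest part is Ighg1 with 3.68%.

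Light chains moved with the heavy chains. The ratio of light to heavy constant FPKM was 2.27, 1.87, and 1.83 in Gm31629-/- mice and 1.96, 2.08, and 1.99 in WT mice, so that the groups overlapped. Lambda constant genes held 1.78%, 8.17%, and 5.70% of light constant FPKM in Gm31629-/- mice and 1.98%, 0.943%, and 1.89% in WT mice. Mice 2 and 3 of the Gm31629-/- group lay above all WT mice, and mouse 1 lay within their range (exact two-sided permutation p = 0.3). Without mouse 1, the difference of the means was 5.33 percentage points in place of 3.61.

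Iglc1 (ENSMUSG00000105906, chr16:19061618-19062071), which pairs with Iglv1 in most mouse lambda chains, was at 35.9, 150.4, and 187 FPKM in Gm31629-/- mice and at 3.45, 1.83, and 1.76 FPKM in WT mice (log2 fold change 4.96, limma adjusted p = 0.00105). Iglv1 itself (ENSMUSG00000076934, chr16:19085017-19085500) was at 40.3, 249, and 278 FPKM against 7.05, 5.26, and 3.27 FPKM (log2 fold change 4.57, limma adjusted p = 0.00273). Both had their lowest Gm31629-/- value in mouse 1, and their log2 fold changes were 5.69 and 5.46 without it. Iglv1 was 97.2% identical to Iglv2 over the last 250 bases, so their fragments could be split. Iglc2, Iglc3, Iglv2, and Iglv3 were also called higher, with log2 fold changes from 1.57 to 3.35. Iglc4 had 1 fragment, in Gm31629-/- mouse 1.

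More variable segments were seen where more fragments were counted. Of the 105 listed Ighv segments, 81, 86, and 89 were above 0 in Gm31629-/- mice and 57, 61, and 54 in WT mice. The Ighv fragments behind these counts were 4385, 6986, and 16336 against 718, 826, and 368. In a draw of 368 fragments from each library, the depth of the shallowest, 49.1, 56.9, and 53.4 segments would be seen in Gm31629-/- mice and 47.2, 52.1, and 54.0 in WT mice, so that the difference of 28.0 segments became 2.06 (exact two-sided permutation p = 0.6). Of the 99 Igkv segments, 85, 82, and 90 were above 0 in Gm31629-/- mice and 62, 60, and 47 in WT mice, from 5831, 6796, and 15599 against 977, 1082, and 476 fragments. At 476 fragments each, 58.4, 58.5, and 58.8 Igkv segments were expected in Gm31629-/- mice and 54.0, 52.3, and 47.0 in WT mice. The Igkv difference of 29.3 segments thus became 7.49, and the groups still did not overlap (exact two-sided permutation p = 0.1).

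The evenness of use overlapped between the groups when all mice were included. The effective number of segments, which is the exponential of the Shannon entropy and equals the number of segments if all are used alike, was 17.4, 35.4, and 24.5 for Ighv in Gm31629-/- mice and 26.2, 26.2, and 28.3 in WT mice (exact two-sided permutation p = 0.8). Mouse 1 had the most uneven and mouse 2 the most even use of all 6 mice. The SD was 9.05 in Gm31629-/- mice and 1.22 in WT mice. For Igkv the effective number was 27.4, 33.8, and 32.4 against 30.9, 27.7, and 27.6 (exact two-sided permutation p = 0.4). Without Gm31629-/- mouse 1 the Igkv numbers of the groups did not overlap, and the difference of the means went from 2.47 to 4.39. The inverse Simpson index, which gives leading segments more weight, overlapped without this mouse. It was 19.5 and 20.1 for Igkv in Gm31629-/- mice 2 and 3 and 20.9, 16.5, and 21.3 in WT mice. Effective numbers were not brought to equal fragments, and WT libraries held fewer. The leading segments that together reached 50% of Ighv FPKM numbered 3, 9, and 5 in Gm31629-/- mice and 6, 6, and 8 in WT mice. The sign of the mean difference in the Ighv number changed without Gm31629-/- mouse 1, from -1.09 to 3.07.

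**Figure D3:**
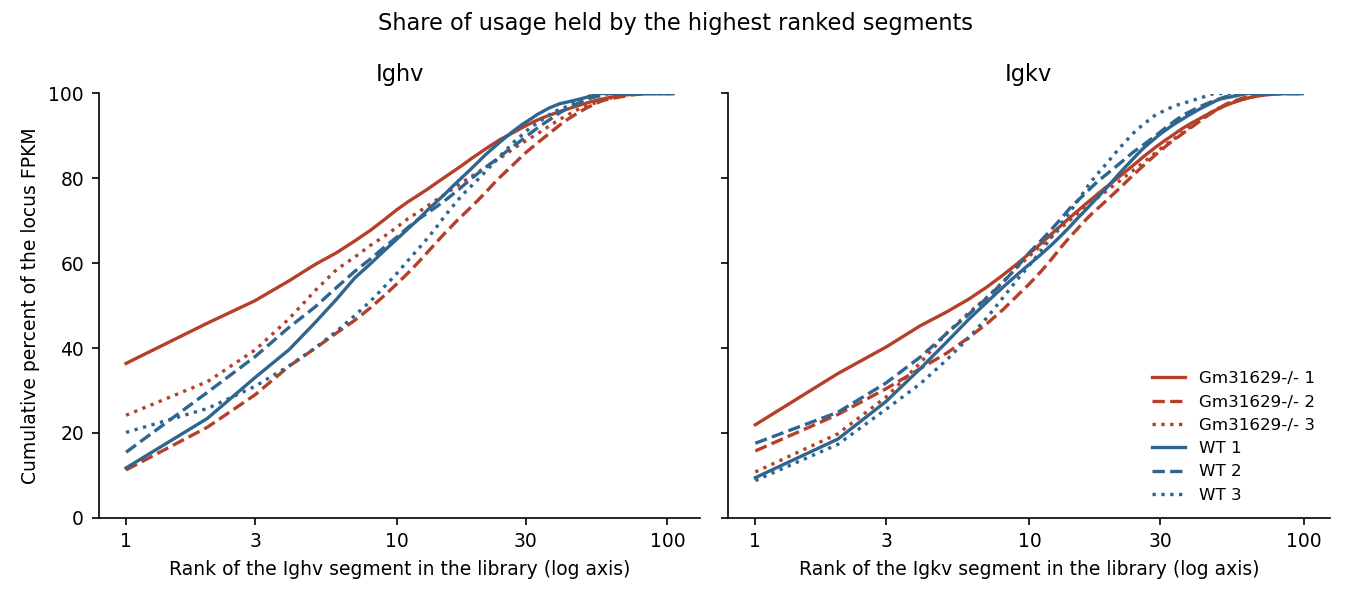
Cumulative percent of Ighv FPKM (left) and Igkv FPKM (right) against the rank of the segment within each library on a log axis, with red lines for Gm31629-/- and blue lines for WT mice. At rank 1 the Ighv curve of Gm31629-/- mouse 1 starts at 36.4% and that of mouse 2 at 11.3%, and the WT curves start between 11.7% and 20.1%.

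The leading heavy chain segment differed between the 3 Gm31629-/- mice. In Gm31629-/- mouse 1, Ighv1-81 (ENSMUSG00000094689) held 36.4% of Ighv FPKM, or 35.5% of 4385 Ighv fragments (95% exact binomial interval 34.1% to 36.9%). In mouse 2 the leader was Ighv2-2 with 11.3%, and in mouse 3 Ighv1-75 with 24.2%, or 24.6% of 16336 fragments (interval 23.9% to 25.3%). In WT mice, Ighv3-6 led in mouse 1 with 11.7% and in mouse 3 with 20.1%, and Ighv1-64 led in mouse 2 with 15.5%. The WT shares had wider intervals, for example 15.4% to 23.7% for Ighv3-6 in WT mouse 3, where it had 71 of 368 fragments.

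Ighv1-81, a member of the large Ighv1 family, was high in all Gm31629-/- mice. It was at 241, 105, and 180.99 FPKM in Gm31629-/- mice and at 1.85, 0.633, and 0.606 FPKM in WT mice. It ranked 1, 2, and 3 among Ighv segments in Gm31629-/- mice 1 to 3 and 15, 37, and 25 in WT mice 1 to 3. The groups were far apart, with a rise of 6.42 ± 0.35 on the log2 scale (standard error, limma adjusted p = 0.000113), and of 6.15 without mouse 1 (limma adjusted p = 0.000203). Pooled over each group, 3405 fragments were counted against 20, a ratio of 170.5 (95% exact interval 110 to 279), which was 284 (interval 144 to 657) without WT mouse 1, the source of 12 of the 20. Its share of Ighv FPKM was 36.4%, 10.1%, and 7.46% against 1.78%, 0.509%, and 1.13%. The share lay above WT in each mouse, and the difference of the means was 16.8 percentage points with mouse 1 and 7.63 without it. Ighv1-81, Ighv8-12, and Igkv8-30 were named by a rule that includes a large rise, so their higher shares are not separate evidence.

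Ighv8-12 (ENSMUSG00000076731), from the smaller Ighv8 family, was also high in each Gm31629-/- mouse, at a lower level. It was at 25.7, 37.8, and 66.9 FPKM in Gm31629-/- mice and at 0.151, 0, and 0.743 FPKM in WT mice, in which 1, 0, and 5 fragments were counted. Its share was 3.88%, 3.62%, and 2.76% in Gm31629-/- mice and 0.145%, 0%, and 1.39% in WT mice. The log2 fold change was 5.03 (limma adjusted p = 0.000242), and the pooled fragments gave a ratio of 143 (95% exact interval 65.6 to 392). This ratio rests on WT mouse 3, without which 859 fragments stood against 1, a ratio of 568 (interval 102 to 22453).

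The levels of other leading heavy segments varied widely between mice. Ighv1-75 was at 3.64, 5.08, and 586 FPKM in Gm31629-/- mice and at 1.45, 0, and 0 FPKM in WT mice. The level in mouse 3 thus exceeded the other 2 Gm31629-/- mice by far, and the gene did not pass the test (log2 fold change 4.24, limma adjusted p = 0.0835). It passed without Gm31629-/- mouse 1 (limma adjusted p = 0.0443) and without mouse 3, with a log2 fold change of 1.98 (limma adjusted p = 0.0172). Ighv2-2 was at 1.85, 118, and 71.3 FPKM against 0.768, 0, and 1.36 FPKM. It was called (log2 fold change 4.17, limma adjusted p = 0.0358), but not when any mouse other than Gm31629-/- mouse 1 was left out (limma adjusted p = 0.0824 to 0.111).

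Ighv9-3 behaved in a like manner, at 5.11, 21.9, and 178 FPKM against 2.31, 0.949, and 1.82 FPKM (log2 fold change 3.48, limma adjusted p = 0.0359), and lost its call without Gm31629-/- mouse 2 or any 1 of the WT mice (limma adjusted p = 0.0649 to 0.098). Ighv1-82 was at 18.3, 31.0, and 162 FPKM against 1.40, 1.73, and 1.65 FPKM and was called in each fit that left out a mouse (log2 fold change 4.17, limma adjusted p = 0.00388). Ighv3-6, which led 2 of the 3 WT mice, was also higher in Gm31629-/- mice in level, at 35.1, 44.3, and 192 FPKM against 12.2, 1.59, and 10.8 FPKM (log2 fold change 3.21, limma adjusted p = 0.0173). Its share of Ighv FPKM overlapped, at 4.24% to 7.93% in Gm31629-/- mice and 1.28% to 20.1% in WT mice. Ighv1-64 was at 6.17, 10.04, and 27.6 FPKM against 3.20, 19.2, and 1.45 FPKM and was not called (limma adjusted p = 0.288, and 0.0441 without WT mouse 2).

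Among kappa segments, Igkv1-117 led 2 of the 3 Gm31629-/- mice. Igkv1-117 (ENSMUSG00000094335) was at 184, 156, and 206 FPKM in Gm31629-/- mice and at 12.7, 9.07, and 4.08 FPKM in WT mice, a log2 fold change of 4.35 (limma adjusted p = 0.000315). It ranked 1, 1, and 2 among Igkv segments in Gm31629-/- mice and 3, 5, and 4 in WT mice. Its share was 21.9%, 15.8%, and 8.98% against 8.88%, 5.59%, and 6.02%, and mouse 3 of the Gm31629-/- group thus lay close to WT mouse 1. Igkv10-96 was at 101, 84.8, and 77.5 FPKM against 13.6, 9.90, and 5.78 FPKM (log2 fold change 3.11, limma adjusted p = 0.000438), while its share, at 3.38% to 12.1% and 6.10% to 9.47%, overlapped.

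Igkv8-30 (ENSMUSG00000076577) was at 42.2, 60.1, and 83.7 FPKM in Gm31629-/- mice and at 1.18, 1.06, and 0.723 FPKM in WT mice (log2 fold change 4.94, limma adjusted p = 0.000113). Its share was 5.02%, 6.09%, and 3.65% against 0.821%, 0.651%, and 1.07%, so that neither level nor share overlapped. The whole Igkv8 family, with 8 listed segments, held 10.1%, 11.9%, and 8.15% of Igkv FPKM in Gm31629-/- mice and 5.41%, 2.75%, and 3.86% in WT mice. It was the only one of the 33 Ighv and Igkv families whose shares did not overlap between the groups (exact two-sided permutation p = 0.1). At this p, 1 of 33 families is not more than random labels would be expected to give, so the family is not singled out by it.

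The levels of some kappa segments also varied widely between mice of a group. Igkv4-59 led in Gm31629-/- mouse 3 with 10.8% and in WT mouse 2 with 17.6%. It was at 20.97, 10.6, and 248 FPKM against 2.06, 28.5, and 3.47 FPKM and was not called (limma adjusted p = 0.156). Igkv4-53 was at 6.66, 0.443, and 185 FPKM against 0.147, 1.06, and 1.30 FPKM (limma adjusted p = 0.174, and 0.0326 without Gm31629-/- mouse 2). Igkv6-14 was at 0.783, 32.6, and 199 FPKM against 0, 0.480, and 0 FPKM (limma adjusted p = 0.0509, and 0.00107 without Gm31629-/- mouse 1).

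A single named segment had a log2 fold change below 0. Igkv6-32 was at 3.71, 3.70, and 12.9 FPKM in Gm31629-/- mice and at 7.53, 11.2, and 5.96 FPKM in WT mice, and these levels overlapped (log2 fold change -0.41, limma adjusted p = 0.482). Its share of Igkv FPKM was 0.442%, 0.375%, and 0.564% in Gm31629-/- mice and 5.26%, 6.92%, and 8.79% in WT mice, where it led WT mouse 3. The fragments behind these shares were 25, 25, and 87 against 51, 74, and 41.

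**Figure D4:**
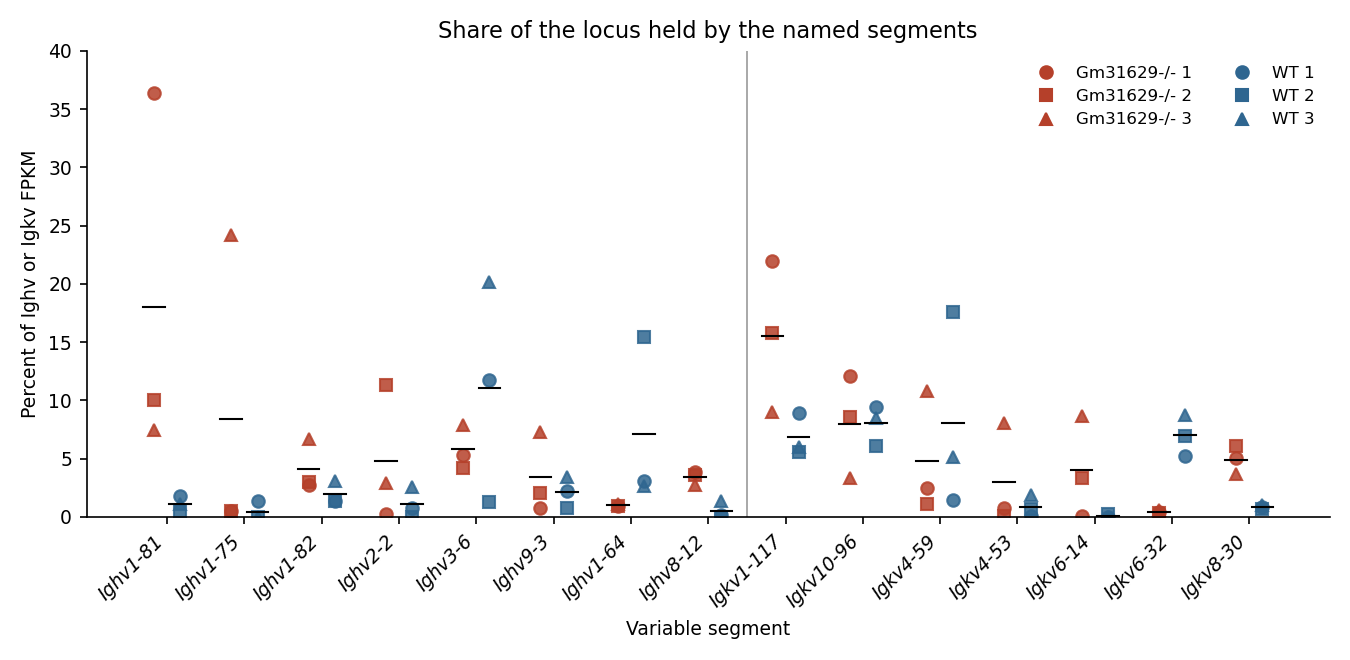
Share of Ighv FPKM (left of the line) or Igkv FPKM (right of the line) held by 15 named variable segments, with 1 point per library and a black line at each group mean. Ighv1-81, Ighv8-12, Igkv1-117, and Igkv8-30 lie above WT in each Gm31629-/- mouse, Ighv1-64 and Igkv6-32 lie below, and Ighv1-75 is high in Gm31629-/- mouse 3 only.

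Over all 204 Ighv and Igkv segments, the shares of all Gm31629-/- mice lay above those of all WT mice for 21 segments (10.3%) and below for 6 segments (2.94%). Of the 21, 9 were Ighv and 12 were Igkv, and 11 were listed at 0 FPKM in all WT mice. Since a segment can be at 0 in WT mice through their fewer fragments alone, the counts of higher and lower shares are not compared with each other. The 6 segments with lower shares were Ighv1-9, Ighv1-61, Ighv1-64, Ighv14-3, Igkv4-55, and Igkv6-32. Ighv1-9, named after its values were seen, held 1.15%, 0.384%, and 1.21% of Ighv FPKM against 9.63%, 6.88%, and 4.24%, and ranked among the first 5 segments in each WT mouse. Its level did not show a fall, at 7.59, 4.01, and 29.5 FPKM against 10.01, 8.54, and 2.27 FPKM. Igkv4-79, also named after its values were seen, was at 16.7, 12.6, and 13.8 FPKM in Gm31629-/- mice and at 0 FPKM in all WT mice. Conversely, Igkv11-125 was at 13.0 FPKM in WT mouse 1, where it held 9.09% of Igkv FPKM, and at 0 to 0.154 FPKM in the other 5 mice.

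Mice resembled each other in part. The shared usage of a pair, which is the percent of the locus that both mice spend on the same segments, was 41.8% to 52.2% among Gm31629-/- mice, 40.4% to 47.7% among WT mice, and 29.5% to 44.4% between the groups for Ighv. For Igkv it was 47.6% to 64.0%, 48.7% to 55.5%, and 41.2% to 54.1%. All 3 ranges overlapped for either locus. Pairs within the Gm31629-/- group shared 5 of their 10 leading Ighv segments and 4 to 6 of their 10 leading Igkv segments. WT pairs shared 3 to 4 and 4 to 5, and pairs between the groups 1 to 5 and 2 to 6. These are descriptions over pairs that share mice, and a WT share rests on few fragments. Of the listed segments, 30 Ighv and 38 Igkv were above 0 in all 6 mice, 24 Ighv and 25 Igkv were above 0 in Gm31629-/- mice alone, and 1 Ighv and 0 Igkv in WT mice alone. A segment can be at 0 in WT mice through their fewer fragments alone, so these counts are not compared with each other. Of all 27546 listed genes, 22456 to 23600 were above 0 in Gm31629-/- libraries and 19938 to 20118 in WT libraries. The share of all genes above 0 in a single group was not computed.

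Position along the locus did not separate the groups. Listed Ighv segments lie 0.149 to 2.57 Mb from the nearest Ighj segment, and listed Igkv segments 0.0184 to 3.11 Mb from the nearest Igkj segment. The mean distance weighted by use was 1.83, 1.33, and 1.61 Mb for Ighv in Gm31629-/- mice and 1.25, 1.54, and 1.15 Mb in WT mice (exact two-sided permutation p = 0.2). For Igkv it was 1.71, 1.43, and 1.38 Mb against 1.63, 1.46, and 1.43 Mb. Ighv1-81, Ighv1-75, Ighv1-82, and Ighv8-12 all lie more than 2 Mb from Ighj, at 2.49, 2.40, 2.52, and 2.22 Mb. Igkv segments on the minus strand, which join by inversion since Igkj lies on the plus strand, held 44.2% to 71.5% of Igkv FPKM, with overlapping groups.

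**Figure D5:**
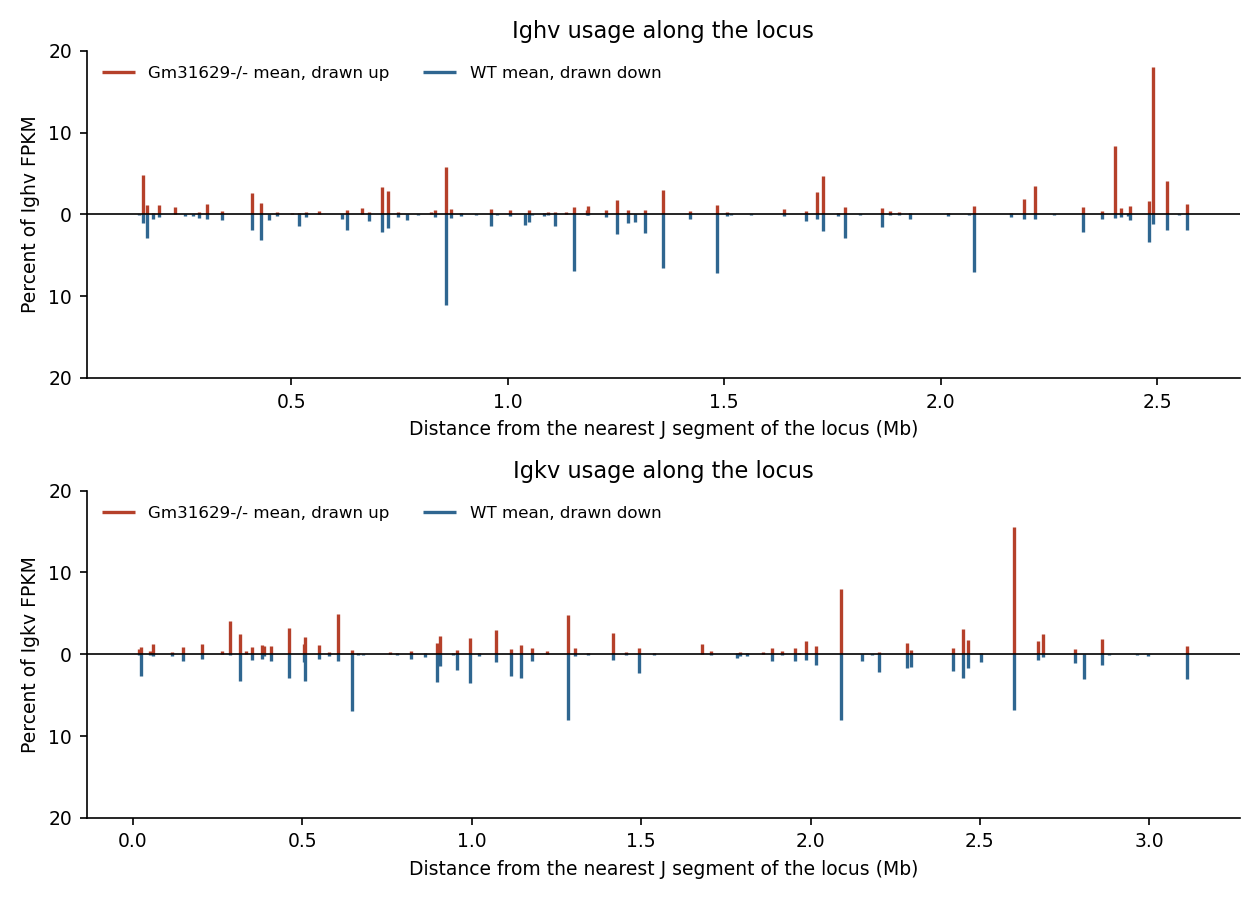
Mean share of Ighv FPKM (top) and Igkv FPKM (bottom) of each listed segment against its distance from the nearest J segment in Mb, drawn up in red for Gm31629-/- and down in blue for WT mice. The tallest Ighv line is Ighv1-81 at 2.49 Mb and the tallest Igkv line is Igkv1-117 at 2.60 Mb, both in Gm31629-/- mice.

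Joining and diversity segments are short and were counted at low levels. The 4 Ighj segments together had 27, 19, and 44 fragments in Gm31629-/- mice and 2, 0, and 4 in WT mice, and the 5 Igkj segments had 74, 29, and 92 against 0, 4, and 2. Ighj4 had 16, 10, and 24 of these in Gm31629-/- mice. Igkj3, which lacks the J motif (above) and is known as a nonfunctional segment in the mouse, had 19, 8, and 19 fragments, beside 10, 6, and 26 of Igkj4. Iglj segments had 10, 0, and 8 fragments in Gm31629-/- mice and 0 in WT mice, and Ighd segments had 2 fragments in all.

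Other genes of the lineage rose with the immunoglobulin genes, but not all of them. Of 12 B cell genes, 9 were tested, 8 were called higher, and 0 lower, against 18.4% and 4.64% of all tested genes, with a median log2 fold change of 1.502. Cd79a and Cd79b, the signaling chains of the B cell receptor, had log2 fold changes of 2.62 and 2.74. Of 12 plasma cell genes, 6 were called higher, among them Jchain, which links IgA dimers, with 202, 203, and 343 FPKM against 16.9, 17.6, and 9.83 FPKM, and Mzb1, a chaperone of antibody secretion, with a log2 fold change of 3.06. Fkbp11 and Txndc5, folding enzymes of the secretory pathway that other secretory cells also express, were called lower, with log2 fold changes of -1.22 and -1.23. Xbp1 and Sdc1, which epithelial cells also express, were not called (log2 fold changes 0.10 and -0.53). The ratio of Igha to Jchain FPKM was 4.14, 5.05, and 5.68 in Gm31629-/- mice and 6.07, 5.97, and 7.28 in WT mice (exact two-sided permutation p = 0.1).

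Of 9 tested genes of class switching and of the homing and transport of IgA cells, 3 were called higher and 1 lower, against 18.4% and 4.64% of all tested genes. Cxcl13, the chemokine that draws B cells into follicles, was at 90.1, 102, and 91.0 FPKM against 1.97, 1.21, and 1.48 FPKM. Madcam1, the vascular receptor for gut-homing lymphocytes, and Tgfb1, the cytokine that directs switching to IgA, had log2 fold changes of 3.49 and 2.16. Ung, a DNA repair enzyme of switching, fell by 1.22 on the log2 scale, and Pigr, the epithelial carrier of IgA, was not called (log2 fold change -0.55). Of the genes of rearrangement in B cell precursors, 3 of 7 were listed, of which Dntt was at 0 to 0.102 FPKM in all mice and Vpreb3 was called higher (log2 fold change 1.04).

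Markers of other cell types also differed between the groups. For comparison, 18.4% of all tested genes were called higher and 4.64% lower. Of 12 smooth muscle genes, all tested, 11 were called higher in Gm31629-/- mice and 0 lower, and their summed level was 1604 to 2618 FPKM against 28.3 to 54.3 FPKM. Of 15 colon epithelium genes, 1 was called higher and 5 lower, with summed levels of 11418 to 15399 FPKM against 18561 to 20384 FPKM. Of 9 tested T cell genes, 4 were called higher and 0 lower, with summed levels of 26.1 to 48.1 FPKM against 10.2 to 15.1 FPKM. The summed B cell genes were at 28.2 to 84.7 FPKM against 4.32 to 7.22 FPKM, and no gene of these lists was at 0 in all mice. No tested B cell, T cell, or smooth muscle gene was lower at an unadjusted p under 0.05 by limma, and the share of all genes was not computed. The part of tissue composition in the immunoglobulin results was not tested.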

How the data were processed

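RNA was isolated from frozen distal colon and 1 TruSeq library was sequenced per mouse. The authors deposited 1 table of FPKM values, with fragments divided by gene length and library depth. The submitters' processing notes name HISAT2 2.1.0, HTSeq 0.6.0, and GRCm38 without their roles, and the annotation is not given in the sources used here. The methods describe RNA pooled from 3 mice of each genotype, whereas the table has 1 column per mouse, and columns were treated as separate mice. The authors' DEGseq comparison was not repeated.

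Symbols, positions, and exon lengths came from GENCODE M21 and matched 27488 of 27546 identifiers. Fragments were recovered as FPKM times exon length times depth, with 96.1% to 97.1% of values of up to 20 fragments within 0.1 of a whole number. Genes were compared with limma 3.58.1 in R 4.3.3 (lmFit, then eBayes with trend) after adding 1 to FPKM and taking log2, over 14657 genes averaging at least 0.5 FPKM, and shares with exact permutation tests in scipy 1.17.1. Scripts were tested on simulated data. Named genes are all constant and Iglv genes, the 5 Ighv and 5 Igkv segments with the highest mean, the highest segment of each library, and the 5 members with the largest called rise. The members, lists, and tests were chosen with earlier results of these data known. Alternatives were other pseudocounts, filters, scalings, and measures of spread, voom on fragments, a replicate block, and each mouse left out. Draws at equal fragments, and the values without each mouse for IgG, Ighg2c, Ighv1-81, the pooled ratios, and the summed level, were added after seeing the data.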

Additional observations from a re-analysis of the deposited data

How the results depend on the processing

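Of 178 tested members, 101 were called higher, and 63 of 89 at a mean of at least 5 FPKM. The count was 62 to 117 with each mouse left out, lowest without WT mouse 3. It was 76 to 114 in the other settings run, with 0 called lower in any. The share of all genes called higher was computed for the main fit (18.4%) and the fit without the filter (9.21%) alone. Of 31 named genes, 29 could be fitted, and 21 of them kept their side of the threshold in every alternative. Over their alternatives, 13 fits lost and 15 gained a call, and none changed sign. The Igha share differed by 1.15 percentage points without Gm31629-/- mouse 1 and by -10.03 to -5.14 without each other mouse, against -6.14 with all mice. The effective number of Ighv segments differed by 2.95 with segments of at least 3 fragments alone and by -5.91 to 3.07 with each mouse left out, against -1.09. That of Igkv differed by -2.13 as the inverse Simpson index, which gives leading segments more weight, against 2.47. The causes were not tested. Replicate numbers named mice only, since deviations of same-numbered mice correlated at -0.108 to 0.036, and the replicate block left the count of members called at 101, with exact p of 0.5 to 1 for the IgA and lambda shares and the effective numbers. Under the block, Igkv6-14 passed (limma adjusted p = 0.0413), and no other named gene changed its call. WT libraries held 368 to 826 Ighv and 476 to 1082 Igkv fragments, which limits the shares of single segments in WT mice.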
